A study of Homo sapiens with 10 samples.

Results

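Collagen and laminin transcripts were counted from long nanopore reads in 7 lines of ovarian cancer cells. A gene was included when its name in the deposited annotation is that of a collagen chain (COL, a number, A and a number) or of a laminin chain (LAMA, LAMB or LAMC and a number), which selected 56 of 57110 annotated genes, 44 of collagens and 12 of laminins. COV362, COV504, OVKATE, OVMANA, OVTOKO and SK-OV-3 have 1 library each, run on the PromethION. IGROV-1 has 4 libraries, 2 from the PromethION and 2 from the smaller MinION, and these are the only replicates. The labels name no treatment or genetic change for any line, and all libraries were made from total RNA. The labels do not say that the IGROV-1 replicates came from separate cultures, so p-values measure only the spread between these libraries, which may be technical.

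Collagens are trimers of chains wound into a triple helix, which needs a glycine in each repeat (Gly-X-Y) of the chain. Fibrillar collagens such as type I form the fibres of stroma and scar and are made mainly by fibroblasts, whereas collagen IV forms the mesh of basement membranes. Laminins are cross-shaped trimers of an alpha, a beta and a gamma chain that anchor epithelial cells to the basement membrane through integrins. Laminin-332, whose alpha and beta chains are LAMA3 and LAMB3, is the laminin of stratified and glandular epithelia and binds the integrins alpha-6/beta-4 and alpha-3/beta-1. Carcinoma cells can make both kinds of matrix themselves.

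Levels are given as CPM, counts scaled to the library's total in the usual way and not divided by transcript length. Library totals lay between 1729782 and 3666224 counts. A count of 0 allows up to 3 counts. For IGROV-1 this floor is 0.64 CPM over the PromethION pair and 0.43 CPM with the MinION pair, and for another line's single library it is 1.18 to 1.73 CPM. Such floors and the intervals given below cover counting error only. In bulk RNA, fewer cells of a type and less RNA per cell cannot be told apart. The epithelial keratin genes KRT8 and KRT18 had at least 3 counts in all 10 libraries, and PAX8, a marker of Muellerian epithelium, lay between 84.1 and 339.8 CPM. Of the 4 Muellerian and ovarian markers it alone was found in every library, with 1 to 4 having at least 3 counts. WT1 was at 76.2 CPM in OVKATE and at most 0.4 CPM elsewhere, and MUC16 and MSLN were at most 2.0 CPM in OVTOKO, SK-OV-3 and IGROV-1. The epithelial markers EPCAM, CDH1 and KRT7 were between 0.0 and 1.5 CPM in the IGROV-1 libraries, and KRT8 between 5.2 and 11.4 CPM. Of the stromal markers, DCN and PDGFRB reached at most 0.6 and 0.9 CPM in any library. THY1 was at 1183.6 CPM in OVKATE, 156.7 in COV362 and 65.4 in COV504, and LUM at 52.7 CPM in SK-OV-3. The leukocyte gene PTPRC reached at most 0.4 CPM.

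Of the 56 genes, 31 reached 20 CPM in at least 1 library, 14 stayed below that level but had at least 3 counts somewhere, and 11 had fewer than 3 counts in every library. All chains together held 0.128% to 0.272% of a library's counts. Summed collagen levels ranged from 595.0 CPM in OVKATE to 2044.6 CPM in SK-OV-3, and summed laminin levels from 583.0 CPM in COV362 to 1397.3 CPM in OVMANA. Between 18 and 39 of the chains had at least 3 counts in a library, with 18 or 19 in each IGROV-1 library, 22 in OVMANA and in OVTOKO, and 39 in COV362.

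**Figure D1:**
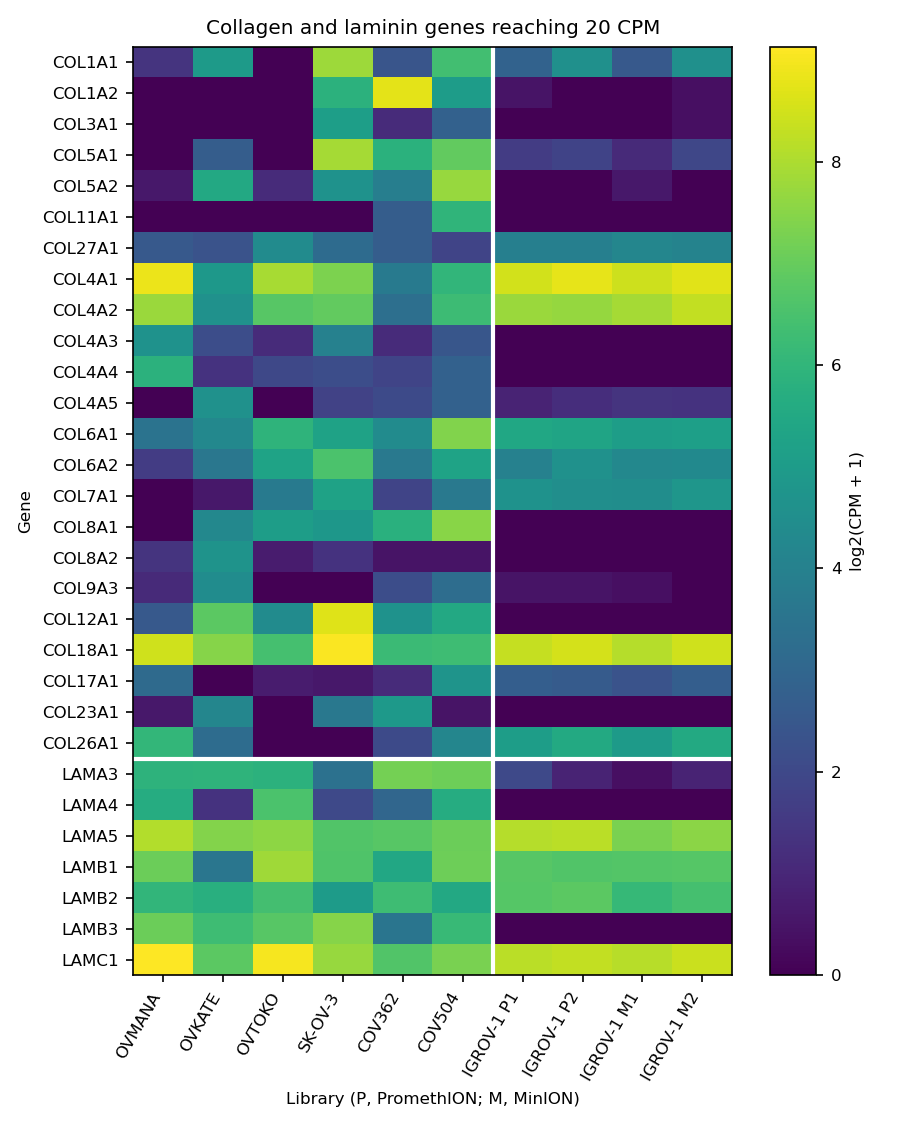
Levels of 30 collagen and laminin genes that reached 20 CPM, as log2(CPM + 1), with genes in rows and the 10 libraries in columns (P, PromethION; M, MinION). COL4A1, COL18A1 and LAMC1 have counts in every library, whereas LAMB3, LAMA4, COL12A1 and COL8A1 are at 0 in the 4 IGROV-1 libraries on the right.

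Each line was compared with IGROV-1 PromethION by edgeR's quasi-likelihood test with Benjamini-Hochberg adjustment over 13030 genes, and the 6 comparisons share the same IGROV-1 libraries. The expression filter left 42 of the 56 chains for testing. A chain that passed it only through the line where it is high had to differ, so the counts describe the chains tested and not the families. In OVMANA 16 chains were called, 10 higher and 6 lower, where 35.4% of all genes were called (18.9% higher and 16.5% lower). OVKATE had 26 calls, 13 in each direction, against 49.2% of all genes (26.8% and 22.4%). In OVTOKO 19 were called, 13 higher and 6 lower, against 34.1% (18.2% and 15.9%).

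SK-OV-3 had 23 calls, 15 higher and 8 lower, against 41.9% of all genes (22.1% and 19.8%). In COV362 30 were called, 19 higher and 11 lower, against 42.5% (23.7% and 18.8%). COV504 had the most, 33 calls with 24 higher and 9 lower, against 43.5% (24.0% and 19.6%). As shares of the 42 chains these are 38.1%, 61.9%, 45.2%, 54.8%, 71.4% and 78.6% in the order given, so that OVMANA lies near its background. By direction, the lower calls of OVTOKO (14.3% of the chains), SK-OV-3 (19.0%) and COV504 (21.4%) were also near theirs, as were the higher calls of OVKATE (31.0%). The median log2 difference of the tested chains was 0.0 in OVMANA, OVKATE and OVTOKO, 0.74 in SK-OV-3, 3.87 in COV362 and 3.65 in COV504, and 1.85 and 3.01 in the last pair when genes at 0 in a group are set to the bound that their floor allows. The median over all genes lay between -0.01 and 0.04. In OVMANA, OVKATE and OVTOKO the median of the chains falls on those with 0 counts in both groups, whose fitted difference is 0.0. It therefore does not show that the chains were unshifted. Such chains count among the 42 and could not be called. With DESeq2 the calls were 16 in OVKATE, 11 in OVTOKO, 18 in COV362 and 17 in COV504, so that COV504 no longer had the most. Of the edgeR calls, 4 in OVMANA and 7 in SK-OV-3 were not under the DESeq2 threshold, and 1 in OVMANA had no adjusted p. The share of all genes called by DESeq2 is not given here, so these counts have no background beside them. In edgeR, OVTOKO had 12 calls without IGROV-1 MinION replicate 1.

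LAMB3 and LAMA3, chains of laminin-332, separated IGROV-1 from the other lines. LAMB3, the beta chain, was at 134.1 CPM in OVMANA, 77.7 in OVKATE, 105.8 in OVTOKO, 178.3 in SK-OV-3, 10.6 in COV362 and 69.4 in COV504. It had 0 counts in all 4 IGROV-1 libraries. Against the IGROV-1 PromethION floor LAMB3 was at least 209-fold higher in OVMANA (adjusted p = 1.68e-05), 121-fold in OVKATE (3.13e-05), 165-fold in OVTOKO (2.52e-05), 277-fold in SK-OV-3 (1.52e-05) and 108-fold in COV504 (3.5e-05).

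LAMA3, the alpha chain, was at 58.2 CPM in OVMANA, 60.8 in OVKATE, 57.8 in OVTOKO, 9.6 in SK-OV-3, 147.7 in COV362 and 135.7 in COV504, and at 3.0, 0.9, 0.3 and 0.9 CPM in IGROV-1 (PromethION replicates 1 and 2, then MinION replicates 1 and 2). The log2 difference of LAMA3 in COV362 was 6.27 (SE 0.34, adjusted p = 8.2e-06). The IGROV-1 values lie below those of every other line. LAMA3 and LAMB3 were called higher in each of the 6 comparisons. In the files' GRCh38 annotation LAMB3 lies at chr1:209614870-209652466 on the minus strand and LAMA3 at chr18:23689443-23956222 on the plus strand.

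LAMB3 and LAMA3 were not ordered alike among the lines that had them, since COV362 had the highest LAMA3 and, of the 6 lines, the lowest LAMB3, and SK-OV-3 the reverse. Over the 7 lines, with IGROV-1 as a single point, the Spearman correlation of LAMA3 with LAMB3 was -0.21, which describes 7 points.

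Of the 4 integrin chains that bind laminin-332, ITGB4 and ITGA3 were called higher in all 6 lines. ITGB4, the beta-4 subunit, had 0.0 CPM in all 4 IGROV-1 libraries and 91.4 CPM in OVMANA, 211.2 in OVKATE, 296.0 in OVTOKO, 157.0 in SK-OV-3, 18.8 in COV362 and 171.7 in COV504. ITGA3, the alpha-3 subunit, was between 1.7 and 4.3 CPM in IGROV-1 and between 74.8 and 246.3 CPM in the other lines. ITGA6, the alpha-6 subunit, was between 15.8 and 28.1 CPM in IGROV-1 and between 32.6 and 215.8 CPM in the other lines, and was called higher in all but OVKATE (adjusted p = 0.128). ITGB1, the beta-1 subunit, was at 223.8 to 290.1 CPM in IGROV-1, within the range of the other lines (132.4 to 1204.2 CPM), and was called higher in OVMANA, OVTOKO and SK-OV-3 and lower in COV362. Of the 6 epithelial markers, 3 or 4 had at least 3 counts in an IGROV-1 library and 5 or 6 in each other line, with sums of 404.0 to 1269.6 CPM in IGROV-1 and 474.0 to 9649.6 CPM elsewhere. KRT7 and CDH1 were at 0.0 CPM in IGROV-1 and EPCAM at most at 1.5 CPM. KRT8 was at 5.2 to 11.4 CPM in IGROV-1 and at 133.5 to 3273.6 CPM in the other lines. KRT18, at 243.6 to 1079.5 CPM, overlapped the range of the other lines (309.5 to 4627.0 CPM). KRT19, at 140.1 to 177.0 CPM, was within their range. The part of these markers in the laminin difference was not tested.

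**Figure D2:**
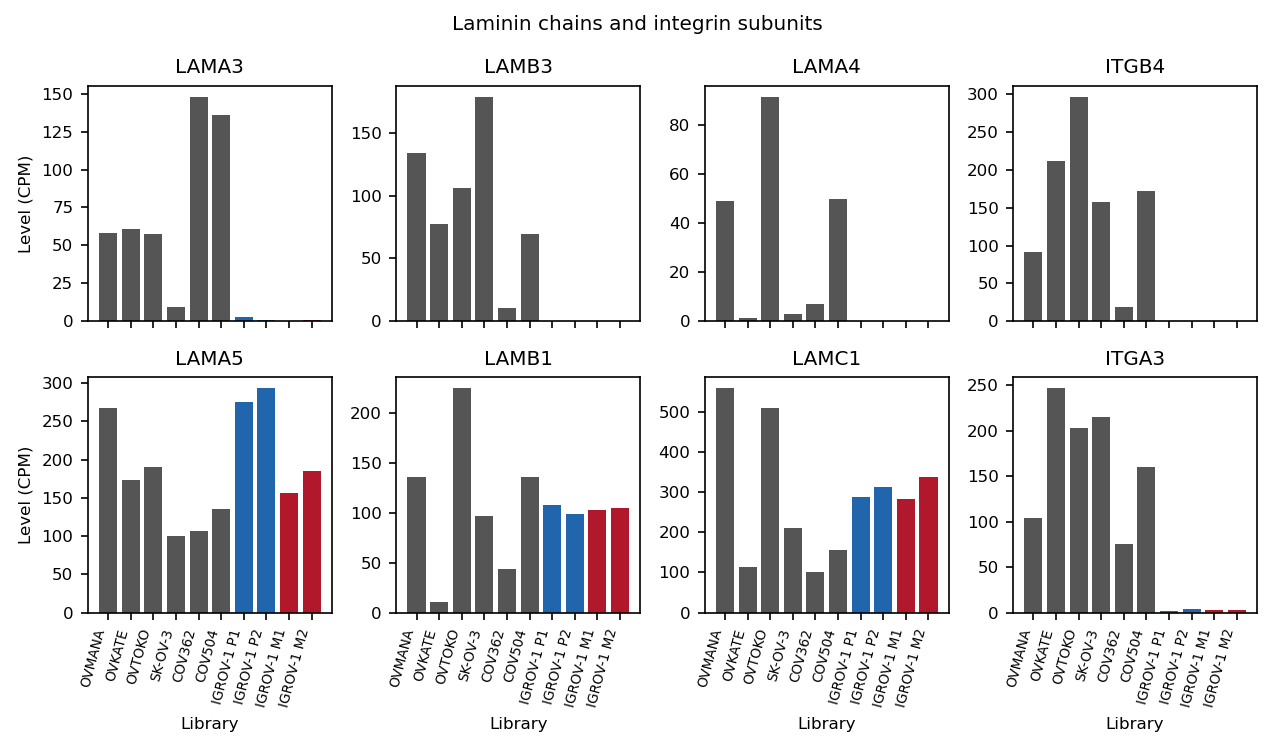
Levels in CPM of the laminin chains LAMA3, LAMB3 and LAMA4, of the widely made chains LAMA5, LAMB1 and LAMC1, and of the integrin subunits ITGB4 and ITGA3, each bar a library (grey, 1 PromethION library of a line; blue, IGROV-1 PromethION; red, IGROV-1 MinION). The top row is at or near 0 in IGROV-1, while LAMC1 is at 283.7 to 337.4 CPM there.

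Sequence around a start from RefSeq (GRCh38.p14) is shown for LAMB3 and LAMA3, because both are at or near 0 in IGROV-1. For LAMB3 the window ends near the start of ENST00000356082, which held 83.1% to 97.8% of the gene's counts in the 6 lines, and for LAMA3 near the start of the short form ENST00000269217. The counted transcripts start 41 (LAMB3) and 180 (LAMA3) bases before the RefSeq start, so that each window also holds the beginning of the transcript. The LAMA3 window is that of a minor start. The long form ENST00000313654 held 65.5% to 95.6% of LAMA3 counts in lines with at least 20 counts, and no window lay near its start. The windows are chr1:209652376-209652675 on the minus strand and chr18:23872770-23873069 on the plus strand, each with 250 bases before and 50 after the RefSeq start. Capitals mark TGANTCA, the letters of the AP-1 site, searched on both strands.
LAMB3: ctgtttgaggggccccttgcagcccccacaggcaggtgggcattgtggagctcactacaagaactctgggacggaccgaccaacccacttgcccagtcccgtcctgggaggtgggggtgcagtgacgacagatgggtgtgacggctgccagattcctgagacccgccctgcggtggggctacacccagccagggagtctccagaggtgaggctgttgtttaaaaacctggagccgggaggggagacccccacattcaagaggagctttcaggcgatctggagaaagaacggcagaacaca
LAMA3: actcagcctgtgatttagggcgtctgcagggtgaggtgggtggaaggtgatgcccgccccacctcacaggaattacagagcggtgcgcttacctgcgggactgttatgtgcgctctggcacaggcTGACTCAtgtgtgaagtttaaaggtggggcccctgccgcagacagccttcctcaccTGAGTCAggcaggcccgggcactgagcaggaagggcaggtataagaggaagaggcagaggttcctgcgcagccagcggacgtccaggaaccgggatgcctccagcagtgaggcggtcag

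The LAMA3 window holds 2 such matches, 125 and 69 bases before the RefSeq start and thus inside the counted transcript ENST00000269217, and the LAMB3 window holds 0. A match occurred in 7.7% of 35116 RefSeq windows of 300 bases. A second LAMB3 start, that of ENST00000391911, has 1 match 67 bases upstream, and this transcript held 2.2% to 16.9% of the LAMB3 counts. Of the 23 chains with a window near a transcript start, only LAMA3 and LAMB3 had a match. For LAMA3, LAMB1 and LAMB3 every counted start with a window was searched, and for the others only that of the main transcript. The search was therefore not equal over the chains, and no comparison of chains is drawn from it. A match is a description of letters and not a bound site.

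The chains of laminin-511 and laminin-521, LAMA5, LAMB1, LAMB2 and LAMC1, were present in all 10 libraries. LAMC1, the common gamma chain, was at 557.8 CPM in OVMANA, 112.3 in OVKATE, 508.7 in OVTOKO, 211.2 in SK-OV-3, 99.9 in COV362 and 155.7 in COV504, and at 286.6, 311.8, 283.7 and 337.4 in IGROV-1. It was called higher in OVMANA and OVTOKO and lower in the 4 other lines. LAMA5 lay at 275.1 and 292.9 CPM in IGROV-1 PromethION, 156.6 and 184.5 in MinION, 267.2 in OVMANA, 173.6 in OVKATE, 190.8 in OVTOKO, 99.8 in SK-OV-3, 107.0 in COV362 and 135.3 in COV504. It was called lower in 5 of the 6 lines, and OVMANA did not pass the test (adjusted p = 0.953).

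LAMB1 and LAMB2 are alternative beta chains. LAMB1 was at 135.2 CPM in OVMANA, 10.9 in OVKATE, 224.3 in OVTOKO, 96.7 in SK-OV-3, 43.1 in COV362, 136.1 in COV504, and 98.8 to 107.2 CPM in IGROV-1, so that OVKATE was the lowest and OVTOKO the highest. LAMB2 was at 64.1 CPM in OVMANA, 53.4 in OVKATE, 83.2 in OVTOKO, 30.9 in SK-OV-3, 76.4 in COV362 and 44.5 in COV504, and in IGROV-1 at 105.1 and 112.5 on the PromethION and 68.2 and 84.7 on the MinION. LAMB2 was called lower in OVMANA, OVKATE, SK-OV-3 and COV504, and LAMB1 lower in OVKATE and COV362 and higher in OVTOKO. LAMB1 was 16.9% (95% Wilson interval 11.4 to 24.3) of the counts of both in OVKATE and 75.8% (70.1 to 80.7) in SK-OV-3, with transcripts of nearly the same length (5725 and 5643 nt).

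LAMA4, the alpha chain of endothelial and mesenchymal laminins, had 0 counts in all 4 IGROV-1 libraries. It reached 49.2 CPM in OVMANA, 91.3 in OVTOKO and 49.8 in COV504, with 1.5 CPM in OVKATE, 3.0 in SK-OV-3 and 7.1 in COV362. Against the floor LAMA4 was at least 76.5-fold higher in OVMANA (adjusted p = 9.58e-05), 142-fold in OVTOKO (4.48e-05) and 77.6-fold in COV504 (7.86e-05). The endothelial gene VWF was at 0.0 CPM and PECAM1 at most at 1.2 CPM in those 3 libraries, and CDH5 was at 0.0, 0.0 and 24.9 CPM. LAMA1 had at least 3 counts in 1 line, COV362 (7.4 CPM), LAMC3 peaked at 5.1 CPM there, LAMA2 at 2.3 CPM in OVTOKO, and LAMB4 had fewer than 3 counts everywhere.

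Collagen IV chains are encoded as head-to-head gene pairs that share the stretch between their starts. COL4A1 and COL4A2, the chains of the common basement membrane trimer, were high in OVMANA and IGROV-1 and low in COV362 and OVKATE. COL4A1 was at 463.3 CPM in OVMANA, 28.2 in OVKATE, 243.4 in OVTOKO, 158.5 in SK-OV-3, 12.1 in COV362, 62.7 in COV504, and 363.1, 438.6, 342.6 and 419.3 in IGROV-1. COL4A2 followed at 213.2, 23.7, 106.9, 122.1, 9.0 and 76.1 CPM in the same order of lines and 214.4, 202.7, 238.7 and 308.7 in IGROV-1. Over the 7 lines the Spearman correlation of the pair was 0.93, as a description of 7 points. COL4A1 lies at chr13:110148963-110307233 on the minus strand and COL4A2 at chr13:110305812-110513209 on the plus strand. Both were called lower in 5 lines, and in OVMANA neither passed the test (adjusted p = 0.269 and 0.729).

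The starts of the main transcripts of COL4A1 and COL4A2 lie 118 bases apart on chromosome 13, and their promoter windows share 226 bases. The COL4A2 window, chr13:110307034-110307333 on the plus strand, covers both starts and is shown for that reason. Capitals mark CCAAT, searched on both strands, whose single match lies 105 bases before the COL4A2 start and, read on the other strand, 26 bases before that of COL4A1.
COL4A2: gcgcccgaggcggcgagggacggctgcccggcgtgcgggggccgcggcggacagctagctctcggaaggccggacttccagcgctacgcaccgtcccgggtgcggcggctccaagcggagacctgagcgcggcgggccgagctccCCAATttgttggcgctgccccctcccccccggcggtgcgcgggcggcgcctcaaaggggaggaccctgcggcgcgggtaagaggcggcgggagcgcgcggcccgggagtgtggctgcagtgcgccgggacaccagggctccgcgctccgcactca

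CCAAT was found in 34.6% of all windows. GC made up 77.7% of the COL4A2 window and 58.7% of the median window, and the dinucleotide CG occurred 45 times against a median of 14. Although the pair moved together, its balance was not constant. COL4A1 was 68.5% (65.9 to 71.0) of the pair's counts in OVMANA, 69.5% (65.7 to 73.0) in OVTOKO, 56.5% (52.3 to 60.6) in SK-OV-3 and 45.2% (39.8 to 50.7) in COV504, and 57.6% to 68.4% over the IGROV-1 libraries. The 2 transcripts are of similar length (6616 and 6494 nt).

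**Figure D3:**
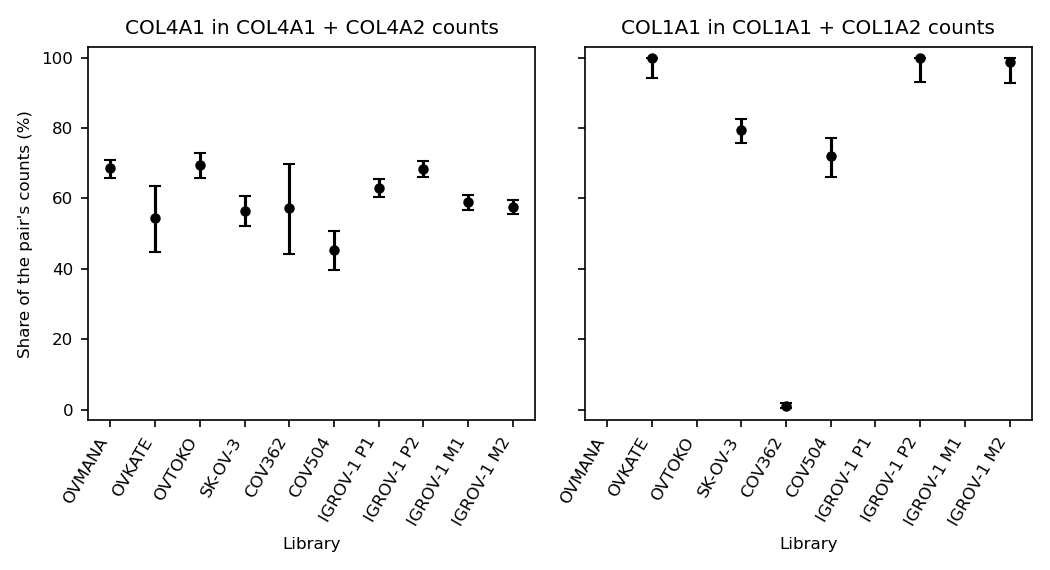
Share of COL4A1 in the counts of COL4A1 and COL4A2 (left) and of COL1A1 in those of COL1A1 and COL1A2 (right) in each library with at least 20 counts for the pair, in percent with 95% Wilson intervals. COL4A1 stays between 45.2% and 69.5%, whereas COL1A1 is 1.0% in COV362 and the whole of the pair in OVKATE and IGROV-1 PromethION replicate 2.

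COL4A3 and COL4A4, chains of the specialised collagen IV network of kidney, lung and eye, were most abundant in OVMANA. COL4A3 was at 24.0 CPM in OVMANA, 15.2 in SK-OV-3, 4.4 in COV504 and at most 3.5 in the 3 other lines, and COL4A4 at 56.6 CPM in OVMANA and at most 6.2 elsewhere. Both had 0 counts in all 4 IGROV-1 libraries. In OVMANA COL4A4 was at least 88.2-fold (adjusted p = 0.000132) and COL4A3 at least 37.4-fold higher (adjusted p = 0.00067). COL4A3 was 29.8% (23.1 to 37.5) of the pair's counts in OVMANA and 81.1% (65.8 to 90.5) in SK-OV-3, so this pair was not in fixed proportion, and its starts are 452 bases apart. COL4A5 reached 23.7 CPM in OVKATE and at most 6.2 CPM elsewhere, whereas its neighbour COL4A6 had fewer than 3 counts in every library.

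Fibrillar collagen transcripts were abundant in COV362, COV504 and SK-OV-3 and scarce in OVTOKO, OVMANA and IGROV-1, with OVKATE in between. In COV362 the single chain COL1A2 gave 429.4 of the 516.4 CPM of fibrillar chains. Fibrillar chains held 64.5% of the collagen counts of COV362, 40.8% of COV504, 28.5% of SK-OV-3 and 14.1% of OVKATE, but 3.4% in OVTOKO, 0.7% in OVMANA and 2.6% to 3.7% in IGROV-1. Collagen IV held 61.7% in OVMANA, 55.6% in OVTOKO, 54.0% to 58.8% in IGROV-1, 14.8% in SK-OV-3, 13.7% in OVKATE, 12.2% in COV504 and 3.5% in COV362. In levels SK-OV-3 had 581.8 CPM of fibrillar chains together with 301.8 CPM of collagen IV, and OVKATE was low in both, at 84.1 and 81.6 CPM. These are shares of counts, which do not allow for length and, as parts of a whole, constrain each other. Of the 11 fibrillar genes 8 were tested. In COV504 7 of these rose and 1 fell, in SK-OV-3 5 rose and 1 fell, and in COV362 4 rose and 1 fell. The counts were 1 and 1 in OVKATE, 0 and 0 in OVTOKO, and 0 and 2 in OVMANA. Over all genes 24.0%, 22.1%, 23.7%, 26.8%, 18.2% and 18.9% rose and 19.6%, 19.8%, 18.8%, 22.4%, 15.9% and 16.5% fell in that order. COL3A1, COL5A2, COL5A3 and COL11A1 had 0 counts in IGROV-1 PromethION and COL1A2 had 1. These chains could hardly fall, so the rises are partly set by the filter.

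**Figure D4:**
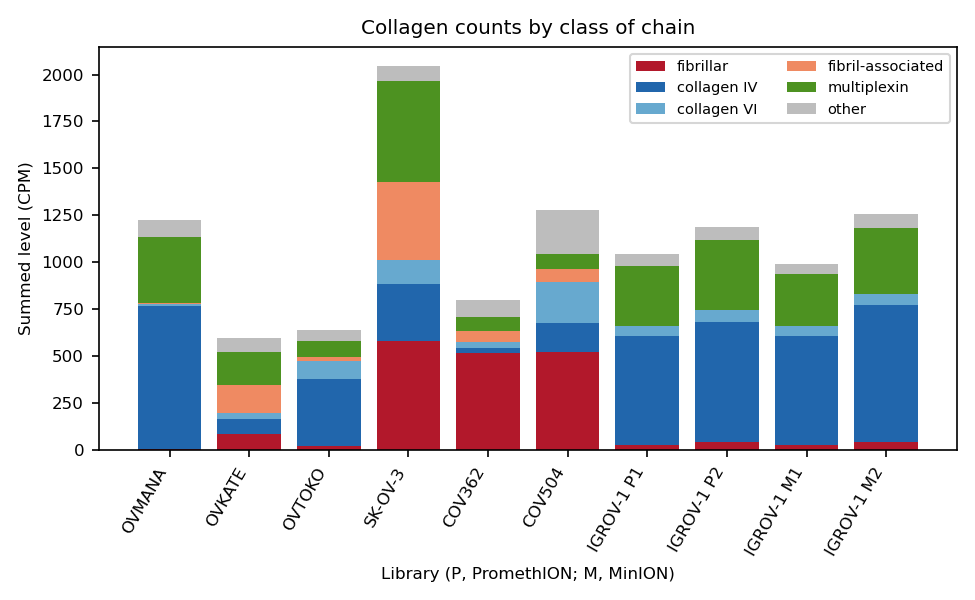
Summed collagen levels in CPM by class of chain in each library (P, PromethION; M, MinION), stacked. The red fibrillar part is 516.4 to 581.8 CPM in SK-OV-3, COV362 and COV504 and at most 84.1 CPM in the other libraries, where collagen IV and the multiplexin COL18A1 make up most of the bar in OVMANA and IGROV-1.

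Collagen I normally joins chains from COL1A1 and COL1A2, and the balance of their transcripts differed widely between lines. COL1A1 was at 219.3 CPM in SK-OV-3, 81.4 in COV504, 30.2 in OVKATE, 4.3 in COV362, 1.6 in OVMANA and 0.0 in OVTOKO. COL1A2 was at 429.4 CPM in COV362, 57.2 in SK-OV-3 and 31.6 in COV504, and at 0.0 in OVMANA, OVKATE and OVTOKO. COL1A1 was 1.0% (95% Wilson interval 0.6 to 1.8) of the pair's counts in COV362, 79.3% (75.7 to 82.5) in SK-OV-3 and 72.0% (66.2 to 77.2) in COV504. Per length these shares were 0.8%, 75.5% and 67.5%. OVKATE had 61 counts of COL1A1 and 0 of COL1A2.

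COL1A1 lies at chr17:50183289-50201632 on the minus strand and COL1A2 at chr7:94394561-94431232 on the plus strand. In COV362 the log2 difference of COL1A2 was 10.71 (SE 0.39, adjusted p = 1.28e-06), where the IGROV-1 PromethION libraries held 1 count, and the ratio of levels was 2005 with a counting interval of 359 to 79260. COL1A1 was called higher in SK-OV-3 and COV504. Within IGROV-1, COL1A1 was at 6.4 and 22.8 CPM in PromethION replicates 1 and 2 and at 4.9 and 22.9 CPM in MinION replicates 1 and 2, so the libraries numbered 2 were higher on both instruments. KRT18 was split the same way, at 262.7 and 1041.2 CPM on the PromethION and 243.6 and 1079.5 CPM on the MinION, and its part in the COL1A1 split was not tested.

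Stretches of coding sequence show what sets the 2 families apart. Each collagen stretch is the first 63 bases of the longest unbroken Gly-X-Y run, and the laminin stretch is 63 bases from the early coding part of LAMC1, placed by position alone. They were read from the GENCODE 29 transcript with the most counts, and capitals mark the glycine codons (GGN) that open each Gly-X-Y triplet of the collagens and all glycine codons in LAMC1.
COL1A1: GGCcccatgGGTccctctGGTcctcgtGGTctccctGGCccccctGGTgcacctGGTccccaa
COL1A2: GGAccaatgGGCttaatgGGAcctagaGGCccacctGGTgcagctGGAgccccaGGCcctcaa
COL4A1: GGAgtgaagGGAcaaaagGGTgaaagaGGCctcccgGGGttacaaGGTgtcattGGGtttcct
LAMC1: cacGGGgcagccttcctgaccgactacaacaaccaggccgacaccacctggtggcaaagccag

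The unbroken run was 338 triplets long in COL1A1, 339 in COL1A2 and 343 in COL3A1, and 40 in COL4A1, whose repeat is broken into 22 runs of 3 triplets or more. In LAMC1 the longest run was 2 triplets. COL12A1 and COL18A1, which join short helical parts to long non-helical ones, had 8.1% and 41.2% of their codons in such runs, against 72.7% in COL1A1.

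The minor fibrillar collagens differed in where they were highest. COL5A1, which starts fibrils together with COL5A2, was at 236.5 CPM in SK-OV-3, 121.0 in COV504, 55.6 in COV362 and 5.4 in OVKATE, at 0.0 in OVMANA and OVTOKO, and at 1.1 to 2.8 in IGROV-1. COL5A2 was at 208.7 CPM in COV504, 44.0 in OVKATE, 24.3 in SK-OV-3, 14.1 in COV362 and at most 1.2 in the other libraries. Against the floor COL5A2 was at least 325-fold higher in COV504 (adjusted p = 6.49e-06) and 68.5-fold in OVKATE (adjusted p = 7.55e-05), and OVKATE thus had COL5A2 with little COL5A1.

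COL3A1, the partner of collagen I in soft tissue, was at 33.9 CPM in SK-OV-3, 6.2 in COV504, 1.2 in COV362 and at most 0.3 elsewhere, which is at least 52.8-fold higher in SK-OV-3 (adjusted p = 0.000259). COL11A1, often described as a marker of tumour stroma, was at 61.8 CPM in COV504, 5.5 in COV362 and 0.0 in every other library, at least 96.3-fold higher in COV504 (adjusted p = 9.72e-05). COL5A3 had counts in COV504 alone (6.7 CPM). COL27A1, a fibrillar chain of cartilage, went another way with 14.2 to 17.2 CPM in IGROV-1, 20.2 in OVTOKO and 2.7 to 8.1 in the 5 other lines, and was called lower in those 5.

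The stromal markers are given beside the fibrillar chains, and their part in those differences was not tested. Of the 7 stromal markers 6 were found in the annotation under a name of their own, and 0 to 2 of them had at least 3 counts in a library. Their summed level was 161.0 CPM in COV362, 66.7 in COV504 and 56.2 in SK-OV-3, and 1183.6 CPM in OVKATE, nearly all of it THY1 apart from LUM in SK-OV-3 (52.7 CPM). In SK-OV-3, COV362 and COV504 the other members of the list were low, with DCN at most at 0.5 CPM, PDGFRB at 0.4, FAP at 1.5 and POSTN at 3.9.

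Collagen VI forms beaded filaments from COL6A1, COL6A2 and COL6A3. COL6A1 was at 169.5 CPM in COV504, 60.1 in OVTOKO, 37.0 in SK-OV-3, 18.3 in OVKATE, 10.2 in OVMANA, and 32.7 to 42.7 in IGROV-1, with 51 counts in COV362. COL6A2 was at 92.2 CPM in SK-OV-3, 38.2 in OVTOKO, 37.8 in COV504, 11.8 in COV362, 11.4 in OVKATE, 2.1 in OVMANA, and 15.0 to 23.6 in IGROV-1. The third chain, COL6A3, reached 8.5 CPM in COV504 and had fewer than 3 counts in every other library, so COL6A1 and COL6A2 were counted in all libraries largely without it. COL6A1 was 81.8% (78.0 to 85.0) of the counts of the first 2 chains in COV504 and 28.6% (23.4 to 34.5) in SK-OV-3.

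COL7A1, the anchoring fibril collagen that ties laminin-332 to the dermis in skin, was present in IGROV-1 at 21.3 to 26.6 CPM. It was at 37.5 CPM in SK-OV-3, 12.7 in OVTOKO, 12.0 in COV504, 2.7 in COV362, 0.5 in OVKATE and 0.0 in OVMANA, where it was at least 14.2-fold lower than in IGROV-1 (adjusted p = 0.000258).

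COL8A1, a short-chain collagen of vessel walls and cornea, had 0 counts in IGROV-1 and OVMANA. It was at 180.2 CPM in COV504, 54.1 in COV362, 33.0 in OVTOKO, 27.3 in SK-OV-3 and 18.3 in OVKATE. It was at least 280-fold higher in COV504 (adjusted p = 1.17e-05), 84.1-fold in COV362 (6.25e-05), 51.3-fold in OVTOKO (0.000194) and 42.6-fold in SK-OV-3 (0.000247). COL8A2 reached 24.7 CPM in OVKATE alone, at least 38.5-fold higher (adjusted p = 0.000686), with at most 1.6 CPM elsewhere, so the 2 chains peaked in different lines.

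COL12A1 (chr6:75084326-75206051 on the minus strand), which decorates collagen fibrils, was the fibril-associated chain with the widest range. It had 0 counts in all IGROV-1 libraries and was at 414.3 CPM in SK-OV-3, 113.8 in OVKATE, 44.9 in COV504, 23.9 in COV362, 20.2 in OVTOKO and 4.8 in OVMANA. Against the floor it was at least 645-fold higher in SK-OV-3 (adjusted p = 6.46e-06), 177-fold in OVKATE (1.96e-05), 37.2-fold in COV362 (0.0002) and 31.5-fold in OVTOKO (0.000408). COL9A3 was at 20.8 CPM in OVKATE, 8.5 in COV504, 3.5 in COV362 and at most 1.1 elsewhere. Of the 10 fibril-associated genes 7 were tested. Of these 6 rose in COV362 (23.7% of all genes), 5 in COV504 (24.0%), 3 in OVKATE (26.8%) and 1 each in OVMANA (18.9%), OVTOKO (18.2%) and SK-OV-3 (22.1%), where 1 of 7 is no more than the share of all genes. None fell in any of the 6 lines, where 15.9% to 22.4% of all genes did. Except for COL9A3, with 2 counts, the tested chains had 0 counts in IGROV-1 PromethION and so could hardly fall. The lack of falls is therefore no result, and the rises are partly set by the filter.

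COL18A1, the basement membrane collagen whose end is released as endostatin, was counted in every library. It was at 535.3 CPM in SK-OV-3, 349.5 in OVMANA, 174.1 in OVKATE, 85.6 in OVTOKO, 77.4 in COV504, 74.4 in COV362, and 276.0 to 369.4 in IGROV-1. It was called lower in OVKATE, OVTOKO, COV362 and COV504, and did not pass the test in OVMANA (adjusted p = 0.754) or SK-OV-3 (adjusted p = 0.087). COL15A1, its closest relative, had fewer than 3 counts in every library.

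The transmembrane collagens each peaked in another line. COL17A1, the hemidesmosome collagen, was at 25.4 CPM in COV504, 8.0 in OVMANA, 4.1 to 5.6 in IGROV-1 and at most 1.2 elsewhere. COL23A1 was at 29.8 CPM in COV362, 17.3 in OVKATE, 11.6 in SK-OV-3 and at most 0.5 elsewhere, at least 46.3-fold higher in COV362 (adjusted p = 0.000338). COL25A1 was at 17.6 CPM in OVMANA and at most 0.4 elsewhere, and COL13A1 at 7.5 CPM in OVTOKO and 4.9 in OVKATE.

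COL26A1 was at 65.7 CPM in OVMANA, 30.5 to 45.7 in IGROV-1, 17.4 in COV504, 8.4 in OVKATE, 3.1 in COV362 and 0.0 in OVTOKO and SK-OV-3. It was at least 22.4-fold lower in OVTOKO (adjusted p = 0.000471) and 25.5-fold lower in SK-OV-3 (adjusted p = 0.000194). The other chains below 20 CPM were COL16A1 (highest 14.3 CPM, OVKATE), COL9A1 (14.9, COV362), COL9A2 (6.7, COV362), COL14A1 (6.7, COV504), COL22A1 (6.7, COV504), COL11A2 (3.8, IGROV-1 PromethION replicate 1) and COL24A1 (1.6, OVMANA). With COL15A1, COL4A6 and LAMB4, the genes with fewer than 3 counts in every library were COL2A1 and COL10A1 of cartilage, COL19A1, COL20A1, COL21A1, COL28A1, COL6A5 and COL6A6.

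The genes of the pathway are counted beside the share of all genes that rose, 18.2% to 26.8% in a line, and that fell, 15.9% to 22.4%. Of 22 genes of collagen folding and modification 20 were tested. Of these 8 rose and 4 fell in COV504, 8 and 3 in SK-OV-3, 7 and 3 in OVTOKO, 6 and 3 in OVMANA, 5 and 6 in COV362, and 4 and 9 in OVKATE. The 4 that rose in OVKATE and the 3 that fell in OVMANA, OVTOKO and SK-OV-3 are below the shares of all genes there. The list had a median log2 difference between -0.41 in OVKATE and 0.39 in SK-OV-3. SERPINH1, the collagen chaperone HSP47, was at 263.4 to 621.0 CPM in the 6 lines and 102.6 to 172.2 CPM in IGROV-1, and was called higher in all 6. PLOD2, which hydroxylates lysines used in cross-links, was at 0.0 to 0.3 CPM in IGROV-1, 0.5 in OVMANA, 9.4 in OVKATE and in COV362, 56.7 in SK-OV-3, 64.2 in OVTOKO and 114.8 in COV504.

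Of 14 genes of procollagen processing and cross-linking 12 were tested, of which 1 rose in OVMANA and 4 to 6 in each other line, while 0 to 2 fell, against the same shares of all genes. The median log2 difference was 0.08 in OVMANA and 1.54 to 3.26 in the others, 2.61 in place of 3.19 in COV362 with genes at their bound. LOX, the lysyl oxidase that cross-links collagen, was at 127.8 CPM in OVTOKO, 112.4 in SK-OV-3, 21.8 in COV504, 11.8 in COV362, 6.4 in OVKATE, 1.1 in OVMANA and at most 0.9 in IGROV-1. OVTOKO thus had the highest LOX with COL1A1, COL1A2 and COL3A1 at 0.0 CPM.

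Of 11 basement membrane partners 10 were tested, of which 3 to 6 rose and 2 or 3 fell, beside 18.2% to 26.8% and 15.9% to 22.4% of all genes, with medians from -1.18 in OVMANA to 2.67 in COV504 and 0.01 in OVMANA with genes at their bound. PXDN, the peroxidasin that cross-links collagen IV, was at 216.7 CPM in COV504, 190.0 in COV362, 87.5 in OVKATE, 63.6 in OVTOKO, 55.2 in SK-OV-3, 0.0 in OVMANA and at most 0.6 in IGROV-1. The libraries with the highest COL4A1, OVMANA and IGROV-1, were therefore those with the lowest PXDN. NID1, a nidogen that bridges laminin and collagen IV, was at 66.3 CPM in COV504, 23.1 in COV362 and at most 2.5 elsewhere, and NID2 at 335.6 CPM in OVMANA, 187.9 in OVTOKO and at most 28.0 elsewhere.

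Of 16 collagen and laminin receptor genes 14 were tested. In OVMANA 10 rose and 1 fell, in SK-OV-3 9 and 2, in COV504 8 and 1, in OVKATE and OVTOKO 7 and 3, and in COV362 7 and 4, against 18.2% to 26.8% of all genes higher and 15.9% to 22.4% lower, with medians from 0.45 in COV362 to 1.81 in SK-OV-3. DDR2, a receptor for fibrillar collagen, was at 68.6 CPM in COV362, 22.7 in COV504, 11.1 in SK-OV-3 and at most 0.5 elsewhere. These are the 3 lines with the most fibrillar collagen counts.

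Transcript usage, the division of a gene's counts among its transcripts, could be tested for 16 chains in each line. Of these 96 tests 1 passed (4 at an unadjusted p under 0.05), where 2.78% of tests over all genes passed. LAMB3, LAMA4, COL12A1, COL8A1 and COL5A2 had 0 counts in IGROV-1 PromethION, and COL1A2 and COL25A1 had 1. For these chains IGROV-1 gave no division of counts to compare with. The number passed therefore does not show that usage was stable. By line the share over all genes was 2.75% in OVMANA, 4.97% in OVKATE, 1.35% in OVTOKO, 2.07% in SK-OV-3, 2.98% in COV362 and 2.56% in COV504. The call was LAMB1 in OVKATE (adjusted p = 0.0305). ENST00000393561, whose start at chr7:108002027 lies inside the gene, held 90.2% (72.2 to 97.5) of 22 LAMB1 counts in OVKATE, 30.1% in OVMANA, 40.1% in OVTOKO, 36.0% in SK-OV-3, 34.3% in COV362 and in COV504, and 24.5% to 31.6% in IGROV-1. ENST00000222399, which starts at chr7:108003255, held the rest. The call was lost when only the PromethION libraries were fitted and when any of the 4 IGROV-1 libraries was left out.

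The sequence at the start that carries most LAMB1 counts outside OVKATE is shown as the RefSeq window chr7:108003112-108003411 on the minus strand, all in lower case because neither TGANTCA nor CCAAT occurs in it. The counted transcript ENST00000222399 starts 94 bases before the RefSeq start. GC makes up 71.0% of it and CG occurs 35 times.
LAMB1: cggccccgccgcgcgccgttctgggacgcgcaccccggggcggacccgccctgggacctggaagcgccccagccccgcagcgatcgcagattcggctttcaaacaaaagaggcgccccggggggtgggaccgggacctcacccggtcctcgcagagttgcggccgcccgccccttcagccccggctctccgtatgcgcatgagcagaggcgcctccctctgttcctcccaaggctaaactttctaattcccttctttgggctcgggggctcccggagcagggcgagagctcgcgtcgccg

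LAMA3 is read from a pair of starts. The long form ENST00000313654, which starts at chr18:23689443, held 95.6% (90.2 to 98.4) of LAMA3 counts in OVTOKO, 80.5% in COV362, 79.4% in COV504, 69.3% in OVMANA and 65.5% (57.1 to 73.6) in OVKATE, and the short form, whose start region is printed above, held the rest. IGROV-1 and SK-OV-3 had fewer than 20 counts, and usage was tested only against IGROV-1, so the difference between OVTOKO and the other lines was not tested. The short form of COL6A2, ENST00000397763, was 30.3% (24.0 to 37.2) of its counts in SK-OV-3 and 2.6% to 6.1% in IGROV-1 (adjusted p = 0.109). For COL5A1, ENST00000618395 was 40.9% (33.1 to 49.1) in COV362, 11.1% in SK-OV-3 and 10.9% in COV504, and these lines were not tested against each other. The usage test of COV362 against IGROV-1 PromethION, which held 11 COL5A1 counts, gave an adjusted p = 0.279. COL5A2 and COL8A1 also varied, since ENST00000618828 was 44.9% (32.6 to 59.7) of COL5A2 counts in SK-OV-3 and 4.9% (3.3 to 7.3) in COV504, and ENST00000273342 was 54.5% (46.0 to 62.4) of COL8A1 counts in COV362 and 22.0% (11.4 to 37.2) in OVKATE.

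**Figure D5:**
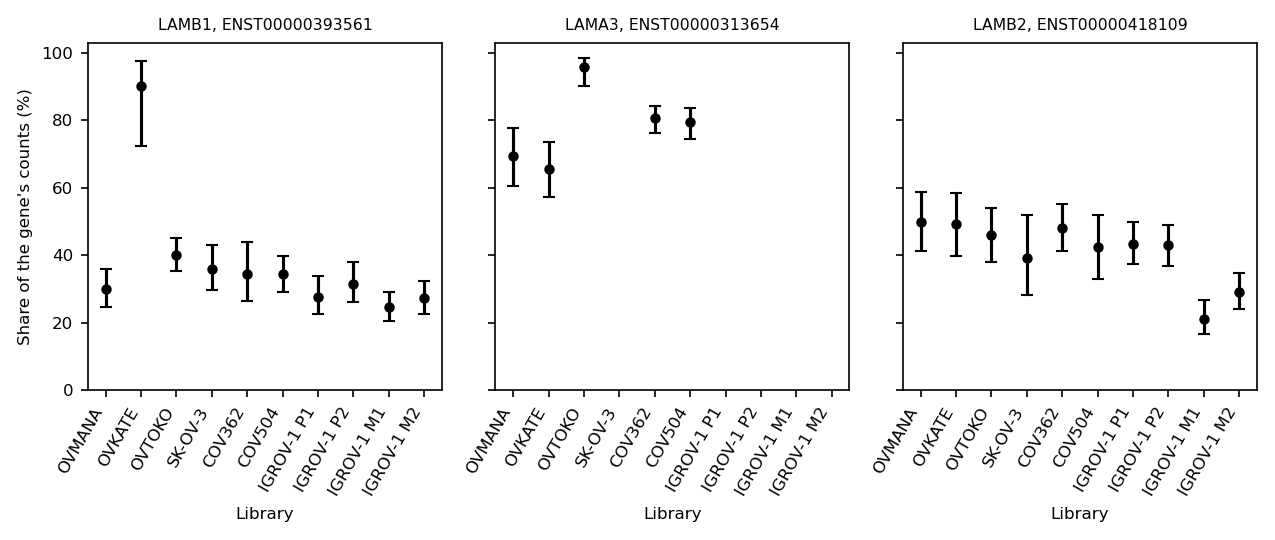
Share of a single transcript in the gene's counts for LAMB1, LAMA3 and LAMB2 in each library with at least 20 counts, in percent with 95% Wilson intervals. LAMB1 stands out in OVKATE at 90.2%, LAMA3 is highest in OVTOKO at 95.6%, and LAMB2 is lowest in the 2 IGROV-1 MinION libraries, at 21.1% in replicate 1.

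The instruments were compared on the 4 IGROV-1 libraries, where 15 chains could be tested. LAMA5 was called lower on the MinION, with a log2 difference of -0.78 (SE 0.12, adjusted p = 0.0306), and 0.827% of 10041 genes were called (0.110% higher and 0.717% lower on the MinION). Its values of 156.6 and 184.5 CPM lie below the 275.1 and 292.9 CPM of the PromethION. Its main transcript is among the longest of the chains at 11426 nt, and the part of length in the difference was not tested. LAMB2 (log2 -0.56, adjusted p = 0.126) and COL4A2 (0.34, adjusted p = 0.267) passed only without adjustment, and the instrument call was lost without PromethION replicate 2 and without either MinION replicate, in the fit of all 10 libraries and with no expression filter. COL26A1 showed a library apart, since ENST00000613501 was 15.0% (9.7 to 23.0) of its counts in MinION replicate 1 and 41.3% to 48.6% in the 3 other IGROV-1 libraries.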

How the data were processed

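Nanopore RNA sequencing of 10 libraries from 7 ovarian cancer cell lines was used. Per the labels' protocols, RNA was purified on a column kit and libraries were made with a ligation kit, with end repair lengthened to 30 min. Per the submitters' processing notes, minimap2 2.24-r1122 and GRCh38 were used. No source used here gives the quantification settings or the annotation release. The authors deposited an estimated count and a TPM for each of 99493 transcripts. The deposited TPM equalled the CPM to within 5.6e-11, so it carries no correction for length.

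Counts were summed per gene and rounded for the tests. The contrasts of the 6 lines with IGROV-1 PromethION were run in edgeR 4.0.16 (R 4.3.3; quasi-likelihood, TMM, two-sided, calls at an adjusted p under 0.05) over all 10 libraries in 8 groups. Residual variation has 2 degrees of freedom from the IGROV-1 replicates, and the spread of a line with a single library is taken to be theirs. Deviations of same-numbered IGROV-1 libraries correlated at 0.376 across the instruments over 8717 genes. The 2 degrees of freedom may therefore not be independent, and the p-values of the 6 line comparisons may be too small. Transcript usage was tested with edgeR's diffSpliceDGE and a Simes p per gene. The tests were checked on simulated data. Alternatives were RLE factors, DESeq2 1.42.0, other filters, PromethION libraries alone and leaving out each IGROV-1 library.

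Chains reaching 20 CPM in a library are described in every library. Test values are given for at most 5 chains per line, those with the largest log2 difference among called chains at 20 CPM or more in either group, and for results that turn on a test that was not passed. Transcript shares are given from 20 counts, and of those the chains described were chosen after their values were seen. A gene at 0 counts in a group is given as a bound from 3 counts over that group. Values of 1 chain are not reported here, although counts over the chains hold it. The genes and lists were chosen with earlier results of these data known. Of 141 transcripts of the chains, 130 have the same position in GENCODE 29. Replicates of IGROV-1 were further apart than counting alone gives (chi-square per degree of freedom 4.36 and 6.73), so both replicates were kept. The sources do not say if strand was used in counting, so overlapping and antisense genes are uncertain, COL4A1 and COL4A2 at their overlapping ends among them.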

Additional observations from a re-analysis of the deposited data

How the results depend on the processing

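The 30 differences of single chains from IGROV-1 picked by the rule for test values kept their direction and passed the threshold under every alternative run. They are the largest among chains already called, most with 0 counts in a group. This outcome was thus largely set by the choice and does not speak for the other calls. The counts of chains called moved more. With DESeq2 they fell from 26 to 16 in OVKATE, from 19 to 11 in OVTOKO, from 30 to 18 in COV362 and from 33 to 17 in COV504, of which 2, 2, 6 and 5 chains had no adjusted p there. In OVMANA 4 of the edgeR calls were not under the DESeq2 threshold and 1 had no adjusted p. In SK-OV-3 7 were not under it. Leaving out each IGROV-1 library gave 12 to 17 calls in OVTOKO against 19, the lowest without MinION replicate 1. The cause was not tested. The instrument call of 1 chain became 0 in the fit of all 10 libraries and without an expression filter, and ranged from 0 to 1 over the libraries left out. With the replicate number as a block it became 3 chains. The labels do not say that a number marks a shared culture, only 2 pairs exist, and the deviations of same-numbered libraries correlated at 0.376 over 8717 genes. The single usage call became 0 with PromethION libraries alone and in each fit without an IGROV-1 library (0 to 0). Requiring 1 or 10 counts for detection moved the chains detected per library from 18 to 39 to 23 to 42 and 14 to 32. No chain is part of a joined identifier, so leaving those out changed no count of calls. Depth limits the chains near 3 counts, and the 6 lines with a single library have no replicate of their own.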
